A study of Homo sapiens with 10 samples.

Results

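The response of NCI-H441 cells to an siRNA against p53 was read from 4 of the 10 libraries of the series, chosen by their labels: the 2 p53 siRNA libraries (sip53) and the 2 control siRNA libraries (siCtrl) of this line. NCI-H441 is an established human lung adenocarcinoma cell line, and the labels give its p53 mutation as R158L, which both arms carry. Replicate 1 of each arm was taken as pair 1 and replicate 2 as pair 2. The other 6 libraries come from NCI-H2087 (p53 V157F, 2 pairs) and NCI-H2110 (p53 R158P, 1 pair), treated with the same 2 kinds of siRNA. Each mutation is present in 1 line, so effects of the line and of the mutation cannot be told apart. The titles speak of a knockout, while the protocol names transfection with an siRNA. The siRNA sequences, the time after transfection and the origin of the replicates are not given in the sources used here, so the p-values measure the spread between these libraries, which may be technical.

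The p53 protein is a transcription factor that activates genes of cell cycle arrest, DNA repair and apoptosis, and R158 lies in its DNA-binding domain, where many tumour mutations fall. An siRNA is a short double-stranded RNA, 1 strand of which guides the Argonaute complex to a matching mRNA for cleavage. Either strand can also pair through its seed, bases 2 to 8, with sites in the 3′ untranslated regions (3′ UTRs) of other mRNAs and lower them moderately, in the way a microRNA does. This holds for control siRNAs as well as for targeting ones.

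The 4 libraries held 23073288 and 25810934 counts (control siRNA, replicates 1 and 2) and 24904295 and 24214760 counts (p53 siRNA), within the series' range of 18336672 to 25810934. Some alveolar type 2 genes were high in all 4 libraries: SFTPA1, a surfactant protein gene, lay between 393 and 1130 CPM (counts scaled to library size) and the lung transcription factor gene NKX2-1 between 150 and 243 CPM. Other markers of that cell type were lower: SFTPB lay between 21.2 and 25.7 CPM, and ABCA3 and LAMP3 between 4.16 and 7.91 CPM. SFTPC and SFTPD, which also define that cell type, had at most 1 and 3 counts in any library. The summed CPM of the 10 alveolar type 2 markers was 2950 and 1350 in control replicates 1 and 2, and 3310 and 1600 in the p53 siRNA libraries, so it was higher in replicate 1 of each arm, and within each pair higher with p53 siRNA. In these bulk libraries fewer cells of a kind and less RNA per cell cannot be told apart. The 8 club and goblet markers summed to between 391 and 615 CPM, mostly from MUC1 and AGR2, with 5 of the 8 under 1 CPM in all libraries. The 5 basal markers summed to between 30.7 and 33.1 CPM and the 4 alveolar type 1 markers to between 13.8 and 24.8 CPM. Sets of 4 ciliated, 5 neuroendocrine and 5 immune and endothelial markers summed to between 0.082 and 2.95 CPM per set. Of other genes known from immune and endothelial cells, CD68 lay between 44.8 and 92.9 CPM and KDR between 22.7 and 59.3 CPM, and neither was called (adjusted p = 0.577 and 0.496). The fibroblast genes COL1A1 (19.4 to 32.5 CPM) and LUM (27.6 to 39.8 CPM) were present, but COL1A2 was at 0 in every library.

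Replicate number was the largest visible difference between libraries of this line. Across 9332 genes, the log2 ratio of replicate 2 to replicate 1 was correlated between the control and p53 siRNA arms (r = 0.595, across genes, which are not independent replicates). Among 10602 genes with a mean of at least 5 CPM, 143 differed at least 2-fold between the control replicates and 294 between the p53 siRNA replicates. Of these, 97 did so in the same direction in both arms, so most of the 294 were not shared. All changes below are therefore paired: log2 of p53 siRNA over control siRNA, ± SE, from edgeR's quasi-likelihood test with the replicate as a block, fitted to all 10 libraries. A gene is called at an adjusted p below 0.05.

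With p53 siRNA, NCI-H441 had higher mRNA levels of the keratin gene KRT6A, the cadherin gene CDH1, the actin-binding gene EFHD2 and the annexin gene ANXA2, and lower levels of CMTM6, CCDC43, CYP1B1 and EFCAB14. Of 17978 genes tested, 75 were called (0.417%), 49 higher (0.273%) and 26 lower (0.145%). The smallest called change was 0.63 log2, and 34 of the 75 were 1 log2 or more. In 64 of the 75 both p53 siRNA libraries lay on the same side of both control libraries, which held for 16.7% of all genes tested upward and for 16.8% downward. The other 11 were called on changes within pairs although the arms overlapped, among them DUSP1, EDN1, MMP9, KRT81, LAMB3, S100A4 and TNFAIP3. Without the replicate block 1 gene was called (0.00556%), 796 genes (4.43%) had an unadjusted p below 0.05, and with the block 2394 did (13.3%). Every call named below was lost without the block.

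The 2 pairs did not contribute equally. Among 10602 genes with a mean of at least 5 CPM, the median size of the change was 0.129 log2 in pair 1 and 0.269 in pair 2, and 66.5% of genes had the same sign in both (r = 0.418 across genes). At least 2-fold changes were seen for 13 genes in pair 1 alone, for 113 in pair 2 alone, for 6 genes upward in both pairs (0.0566%), for 6 downward in both (0.0566%) and for 2 in opposite directions. Left without either library of pair 2, the test called 1 gene, and without control or p53 siRNA replicate 1 it called 22 and 33, most of them lower (15 and 24); in each of these fits 1 pair remained, and its spread was assumed to be that of NCI-H2087.

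**Figure D1:**
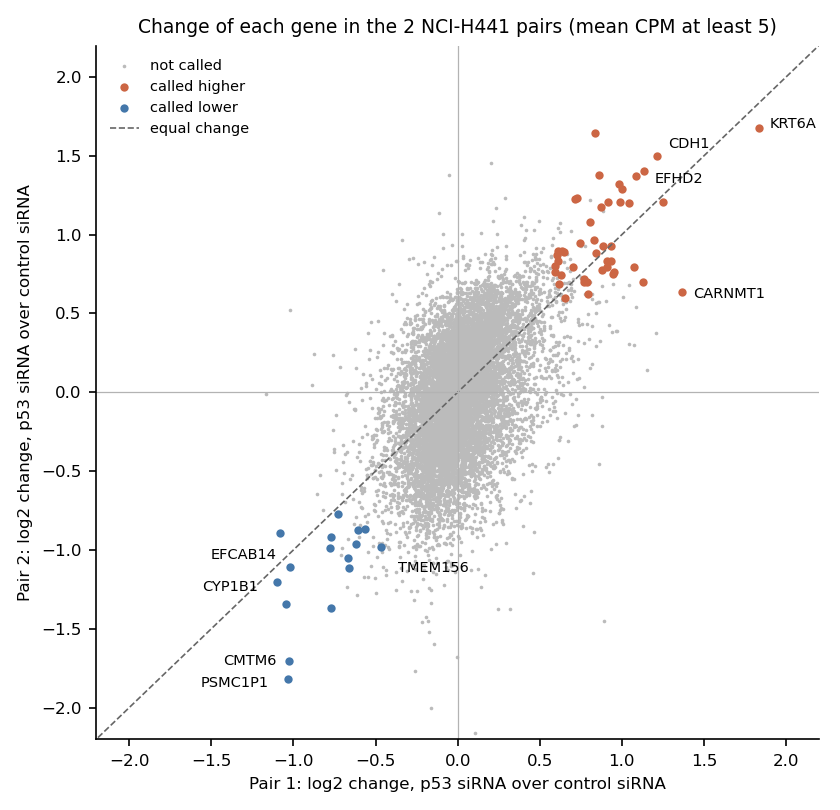
Log2 change with p53 siRNA in pair 1 (x axis) and pair 2 (y axis) for genes with a mean of at least 5 CPM in NCI-H441, with called genes in colour (61 drawn) and a dashed line of equal change; 7 genes lie outside the axes, which end at 2.2. The cloud of genes that were not called is taller than it is wide, as given by the medians of 0.129 and 0.269. The called genes have the same sign in both pairs, but the test that called them used these same pairs and favours such genes.

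The epithelial cadherin gene CDH1, whose protein holds adherens junctions together, stood at 484 and 501 CPM in the control libraries and at 1125 and 1416 CPM in the p53 siRNA libraries. It rose by 1.36 ± 0.17 log2 (edgeR adjusted p = 0.0024), by 1.22 in pair 1 and 1.5 in pair 2. The control replicates were nearly level and both p53 siRNA libraries were above them. CLDN12, a claudin gene, rose too (149 and 140 to 258 and 216 CPM, 0.71 ± 0.13). The other 23 of the 25 tested genes of adherens and tight junctions were not called, with changes from −0.48 (DSC2, a desmosomal cadherin) to 0.40 (JUP, plakoglobin), and the list had a median of 0.13 log2 against 0.00 over all genes.

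ANXA2, which encodes a calcium-dependent phospholipid-binding protein of the plasma membrane, was at 778 and 929 CPM with control siRNA and at 1607 and 2133 CPM with p53 siRNA. Its change was 1.12 ± 0.13 log2 (edgeR adjusted p = 0.00102), and the pairs differed little (1.05 and 1.2). Pseudogenes close in sequence to ANXA2 exist, and how the authors' counting divided such reads is not known. S100A4, a small calcium-binding protein gene of the same list, rose within each pair, from 30.1 to 49.1 and from 14.6 to 25.4 CPM (0.75 ± 0.15), although its arms overlapped. S100A10, the binding partner of ANXA2, had a change of 0.19 (adjusted p = 0.551), and 20 of the 22 annexin and S100 genes tested were not called.

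Genes of the actin cytoskeleton and focal adhesions made up the next group, with 3 of 30 called, all higher. EFHD2, an actin-binding calcium sensor gene, went from 30.9 and 34.1 CPM to 68.1 and 90.5 CPM (1.28 ± 0.14, edgeR adjusted p = 0.00102). TNS4, a tensin family gene, went from 15.3 and 15.6 CPM to 28.9 and 36.1 CPM (1.07 ± 0.15). FLNA, the actin crosslinker filamin A, went from 361 and 383 CPM to 553 and 681 CPM (0.72 ± 0.14). In each of the 3 genes both p53 siRNA libraries lay above both controls. This was so for 18 of the 30 members, with 1 member the other way, against 16.7% and 16.8% of all genes tested. The list's median was 0.28 log2, with 0.14 in pair 1 and 0.44 in pair 2. Of its members 26 were positive, as were 9031 of all 17978 genes tested. TNS4 was also the 1 called gene among 22 tested genes that have been reported to depend on mutant p53, whose median was 0.01.

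Several genes of membrane traffic and scaffolding outside that list rose. EHD2, an ATPase that stabilises caveolae, increased from 82.6 and 80.2 CPM to 151 and 181 CPM (1.02 ± 0.14, edgeR adjusted p = 0.00358), and was the 1 called member of 12 caveolar and EHD genes; the caveolin gene CAV1 had a change of 0.31 (adjusted p = 0.359). AP2A1, a subunit of the clathrin adaptor AP-2, rose from 20.1 and 22.7 to 40.2 and 55.7 CPM (1.15 ± 0.17). RAB3B, a secretory vesicle GTPase gene, rose from 4.59 and 7.32 to 9.18 and 17.0 CPM (1.12 ± 0.17). The large scaffold gene AHNAK2 (0.98 ± 0.15) and MYLK, which encodes myosin light chain kinase (0.94 ± 0.17), rose as well. In all 5 of these genes both p53 siRNA libraries lay above both controls. LAMB3, the laminin-332 beta chain gene and the 1 called member of 18 integrin and laminin genes, rose within pairs from 106 to 160 and from 282 to 493 CPM (0.70 ± 0.13), with the first p53 siRNA library below the second control. LOXL2, a matrix-crosslinking lysyl oxidase gene, rose by 0.98 ± 0.19, CARNMT1, a carnosine methyltransferase gene, by 1.01 ± 0.18, and UQCC6, an assembly factor gene of respiratory complex III, by 1.25 ± 0.20.

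**Figure D2:**
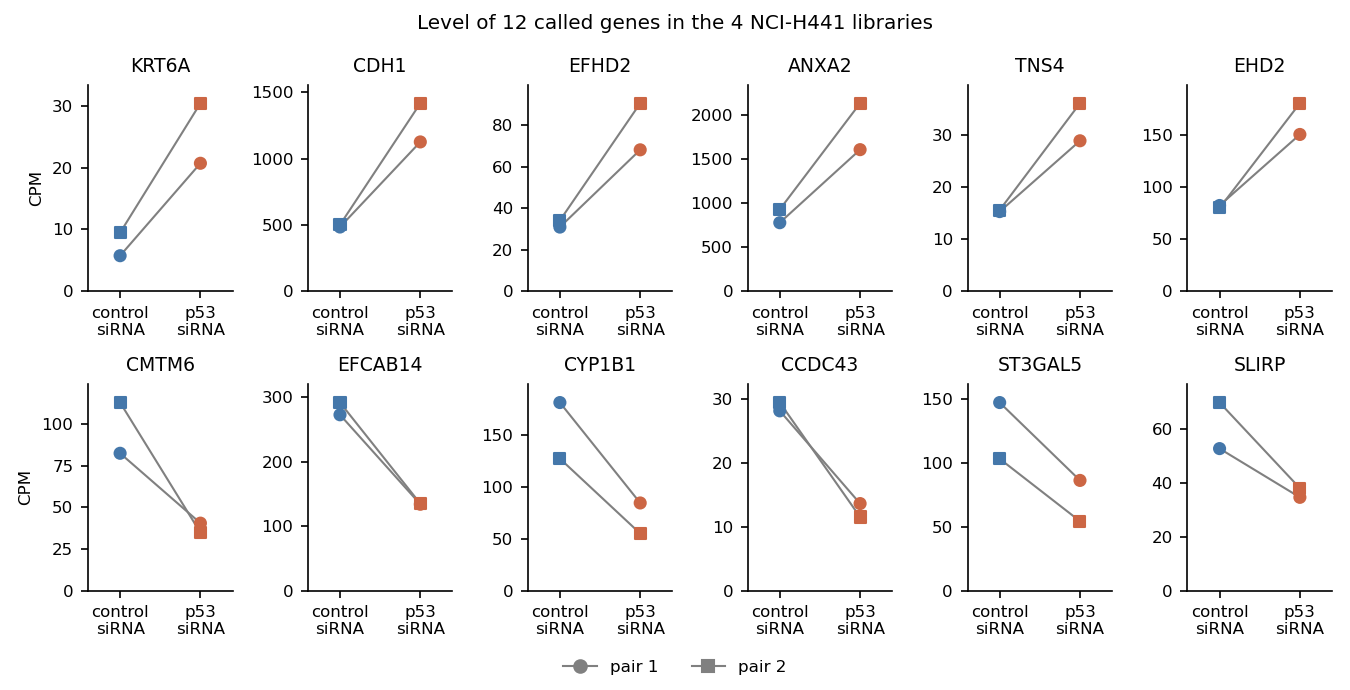
CPM (y axis, from 0, 1 scale per gene) of 12 called genes with control and p53 siRNA in NCI-H441; circles joined by a line are pair 1 and squares pair 2. CDH1 goes from 484 and 501 CPM to 1125 and 1416 CPM and CMTM6 from 82.5 and 113 CPM to 40.5 and 34.8 CPM, and none of the 12 has overlapping arms.

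Some of the genes that rose share a short sequence in the 3′ UTR. Of 12791 sequences of 7 bases present in the 3′ UTRs of at least 200 genes with a mean of 5 CPM or more, GAATATA was followed by the most positive median change once the change had been regressed on GC share and length of the 3′ UTR. Genes with it exceeded genes without it by 0.089 log2, by 0.100 in pair 1 and by 0.081 in pair 2, and it ranked highest of 12791 in each of these. It also ranked highest in NCI-H2087 (0.176) and in NCI-H2110 (0.093), and it was known from earlier results of these data. By number of copies, the adjusted median in NCI-H441 was 0.081 for 1074 genes with 1 copy, 0.110 for 202 genes with 2 and 0.098 for 65 genes with 3 or more. The direction rests on that adjustment: unadjusted medians were −0.013, 0.023 and −0.058, against 0.008 for genes with no copy. In pair 1 they were 0.087, 0.111 and 0.154 (−0.009 with no copy), and in pair 2 −0.132, −0.133 and −0.194 (0.025 with no copy). The sequence is present in 15 of the 46 called higher genes with an annotated 3′ UTR (32.6%), in 2 of 20 called lower genes (10%) and in 12.6% of the 13862 tested genes with a 3′ UTR. It was picked by its rank on the same NCI-H441 changes that gave the calls. These shares and the ranks in the 2 pairs are therefore not independent of that choice. The sites of 8 called genes, with 9 bases on either side, are shown because they include leading rises and both falls that carry it; they are the mRNA strand 5′ to 3′ in DNA letters, with the shared bases in capitals.
CDH1: agctatatcGAATATAgttctgtgt
EFHD2: tatacagatGAATATAaaatgtttt
IL15RA: ccattttacGAATATAtgcgtttat
UQCC6: tttagtcttGAATATAacgcgaaat
HLA-B: taagaatctGAATATAaatttgttt
MYLK, first site: tttgtgtttGAATATAggagaaatc
MYLK, second site: ttgtgttcaGAATATAacctttgtg
CYP1B1: gtacttcttGAATATAaaaaatcat
CCNYL1: tttaagcttGAATATAgtttgggcc

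These sites were read from the GRCh38 genome with GENCODE 29 gene models and are in 3′ UTR exons. That of CDH1 is at chr16:68835363-68835387 (plus strand), that of EFHD2 at chr1:15430174-15430198 (plus), that of IL15RA at chr10:5952481-5952505 (minus), and that of UQCC6 at chr12:103951271-103951295 (minus). HLA-B has its site at chr6:31353967-31353991 (minus), MYLK at chr3:123613230-123613254 and chr3:123612479-123612503 (minus), CYP1B1 at chr2:38068645-38068669 (minus) and CCNYL1 at chr2:207754524-207754548 (plus). EFHD2, CDH1, IL15RA and UQCC6 are among the largest rises in NCI-H441, whereas CYP1B1 and CCNYL1 fell with the same bases present, and ANXA2, TNS4, EHD2 and KRT6A rose without them. Whether either siRNA has a matching seed was not tested.

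Another sequence known from earlier results, CACCCTT, stood near the low end of the same ranking: rank 76 from the lowest in NCI-H441 (−0.041 log2), rank 15 in pair 1, rank 241 in pair 2, rank 52 in NCI-H2087 and rank 41 in NCI-H2110. It is in the 3′ UTR of 4 of 20 called lower genes (20.0%), in 8 of 46 called higher genes (17.4%) and in 9.78% of those tested, and counts this small do not separate the groups. The median 3′ UTR length was 1238 bases in called lower genes, 819 in called higher genes and 969 in all tested. The adjusted median was −0.035 with 1 copy, −0.084 with 2 copies and −0.110 with 3 or more (23 genes), whereas the unadjusted medians were 0.006, −0.016 and −0.004 against 0.006 with no copy. The sites of the 4 called lower genes, chosen for carrying it, are given in the same form.
EFCAB14, first site: aataactctCACCCTTctgactgcc
EFCAB14, second site: atatatataCACCCTTacagatttt
CCDC43: tggagaaatCACCCTTttaaggaag
ST3GAL5: gggagagtaCACCCTTtccaggaat
AIDA: tagcatattCACCCTTcaacaggca

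In GRCh38 the EFCAB14 sites are at chr1:46676660-46676684 and chr1:46676603-46676627, and those of CCDC43, ST3GAL5 and AIDA at chr17:44678047-44678071, chr2:85839299-85839323 and chr1:222669801-222669825, all on the minus strand. The single-gene changes behind them were −1.07 for EFCAB14, −1.2 for CCDC43, −0.84 for ST3GAL5 and −0.72 for AIDA, an axin-interacting protein gene. Called higher genes with the same sequence include TNS4, CLDN12 and HLA-B. The lowest rank of all in NCI-H441 belonged to GATCGAG (−0.077 log2, 245 genes), which ranked 400 from the lowest in NCI-H2087.

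Keratins are the intermediate filament proteins of epithelial cells, and 4 of the 14 tested were called, all higher. KRT6A, a keratin of stressed and squamous epithelium, had the largest rise of the genes named by size: 5.75 and 9.47 CPM became 20.7 and 30.4 CPM, a change of 1.76 ± 0.18 log2 (edgeR adjusted p = 0.000614), with 1.84 in pair 1 and 1.68 in pair 2. KRT7, a keratin of simple epithelium, rose from 570 and 734 to 870 and 1366 CPM (0.75 ± 0.14), and KRT80 from 82.0 and 80.6 to 140 and 131 CPM (0.74 ± 0.14). KRT81, a hair keratin, rose within pairs from 4.81 to 9.59 and from 11.1 to 27.9 CPM (1.18 ± 0.19), with overlapping arms. The 4 genes lie in 1 keratin cluster, KRT80 and KRT7 next to each other and KRT6A within 11 genes of them. Of the 14 keratins 13 had positive changes, and the median was 0.63 log2 against 0.00 over all genes. KRT18, KRT19 and KRT8 of simple epithelium were not called (0.40, 0.40 and 0.34), nor was KRT15 (0.46). With a correction for GC content KRT6A alone of the 4 remained called, at 1.63 (adjusted p = 0.0161), and KRT7 was at 0.51, KRT80 at 0.59 and KRT81 at 0.94. KRT6A and KRT81 have near-identical neighbours (KRT6B, KRT86), so reads of these genes may be divided between copies.

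Basal and squamous markers had mixed changes: of 6 tested, 4 were positive and 2 negative, with a median of 0.31 log2. By edgeR 3 of the 6 had an unadjusted p below 0.05, against 13.3% of all genes tested. In 3 both p53 siRNA libraries lay above both controls and in 1 below, against 16.7% and 16.8% of all genes. TP63, which encodes the p63 regulator of basal cells, was at 22.3 and 24.4 CPM with control siRNA and at 18.6 and 17.4 CPM with p53 siRNA (adjusted p = 0.446), KRT5 had at most 1 count in a library, and KRT6A was the 1 called gene of 6 basal and squamous markers tested.

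Some immune-related genes were among those called. IL15RA, the interleukin 15 receptor alpha chain, rose from 7.12 and 11 CPM to 17.1 and 25.6 CPM (1.24 ± 0.17, edgeR adjusted p = 0.0046). TNFAIP3, which encodes the NF-kB feedback inhibitor A20, rose within pairs from 69.9 to 128 and from 136 to 232 CPM (0.83 ± 0.14), with overlapping arms. These were the 2 calls among 24 NF-kB and inflammatory genes, whose median was 0.24 log2 (19 positive). The inhibitor gene NFKBIA (0.24, adjusted p = 0.517) and the apoptosis inhibitor gene BIRC3 (−0.14, adjusted p = 0.774), also NF-kB targets, were not called.

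HLA-B, a classical MHC class I heavy chain gene, rose from 106 and 177 CPM to 178 and 342 CPM (0.85 ± 0.14, edgeR adjusted p = 0.0118). Each p53 siRNA library exceeded its own control and, by a narrow margin in replicate 1, both controls. It was the 1 called gene of 18 in the MHC class I list, which had a median of 0.21 log2 and 15 positive members. HLA-C, at 71.8 and 82.3 against 99.0 and 168 CPM, had a change of 0.75 without passing (adjusted p = 0.0707), and B2M, the shared light chain, of −0.11. HLA genes are close copies of each other and the counting may mix them.

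CMTM6, whose protein keeps the PD-1 ligand PD-L1 from being degraded, had the largest fall of a protein-coding gene named by size. It went from 82.5 and 113 CPM to 40.5 and 34.8 CPM (−1.37 ± 0.17, edgeR adjusted p = 0.0024), with −1.02 in pair 1 and −1.70 in pair 2. The mRNA of PD-L1 itself, CD274, was at 97.2 and 143 CPM with control siRNA and 111 and 121 CPM with p53 siRNA (−0.02, adjusted p = 0.992). The paralogs CMTM3, CMTM4 and CMTM7 had changes of −0.25, 0.13 and 0.11, and CMTM6 was the 1 call among 8 genes of this list. The protein level of PD-L1 was not measured.

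The other falls came from unrelated functions. CYP1B1, a cytochrome P450 gene induced through the aryl hydrocarbon receptor, fell from 181 and 127 CPM to 84.3 and 54.9 CPM (−1.15 ± 0.13, edgeR adjusted p = 0.00102). EFCAB14, an EF-hand protein gene, fell from 273 and 292 to 134 and 135 CPM (−1.07 ± 0.14), and CCDC43 from 28.1 and 29.4 to 13.6 and 11.5 CPM (−1.2 ± 0.17). In these 3 genes both p53 siRNA libraries lay below both controls, and the fall was more than 1 log2 in each pair. ST3GAL5, the sialyltransferase gene of GM3 ganglioside synthesis, fell by 0.84 log2 and SLC16A14, a monocarboxylate transporter gene, by 1.00. The RNA-binding protein gene SLIRP, which stabilises mitochondrial mRNAs, went from 52.7 and 69.8 to 34.6 and 38.0 CPM (−0.74 ± 0.14), and IGF2BP3, an oncofetal mRNA-binding protein gene, from 13.4 and 10.2 to 8.07 and 5.93 CPM (−0.76 ± 0.15).

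Further falls were larger in pair 2. ZNF680, a zinc finger gene, had −0.77 in pair 1 and −1.37 in pair 2, and its near neighbour ZNF138 had −0.78 and −0.99. TMEM156 had −0.47 and −0.98, CCNYL1, a cyclin Y-like gene, −0.62 and −0.96, C2orf69 −0.66 and −1.11, and MORN2 −0.67 and −1.05. All 6 were called, with edgeR adjusted p from 0.022 (ZNF680) to 0.0455 (MORN2). Pseudogenes also appeared: PSMC1P1, a processed copy of a proteasome ATPase gene, went from 9.49 and 12 to 4.59 and 3.35 CPM (−1.44 ± 0.22), and BNIP3P6 from 221 and 164 counts to 57 and 21. The pseudogene AC140479.4 had 1 and 0 counts in the control libraries and 23 and 213 after p53 siRNA. Reads of such copies may belong to their parent genes. The parent genes PSMC1 and BNIP3 had changes of −0.14 and 0.12, and neither was called. AC243967.1, which is annotated as protein-coding, rose by 1.23 ± 0.24.

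Other gene groups had few or no called members. Of the 38 tested genes that wild-type p53 activates 0 were called, with 8 at an unadjusted p below 0.05 by edgeR, against 13.3% of all genes tested. Their median was −0.11 log2, and 23 were negative. In 12 of them both p53 siRNA libraries lay below both controls and in 4 above, against 16.8% and 16.7% of all genes. The ribosomal protein-like gene RPS27L was lowest of them, at 16.1 and 11.5 CPM against 9.06 and 6.83 CPM (−0.79, adjusted p = 0.0668), the kinase gene PLK2 highest, at 0.54 (adjusted p = 0.134), and the cell cycle inhibitor gene CDKN1A was at 0.31 (adjusted p = 0.379). Over the 33 lists, 609 genes were tested, of which 16 were called higher and 1 lower.

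Mitosis genes had negative changes in 32 of 35 cases with 0 called (7 at an unadjusted p below 0.05), and their median of −0.21 log2 came mostly from pair 2 (−0.36, against −0.07 in pair 1). CENPE, a kinetochore motor gene, was at 58.3 and 52.3 CPM with control siRNA and at 45.7 and 25.3 CPM with p53 siRNA (adjusted p = 0.0958), and HMMR, a spindle protein gene, at 92.0 and 103 against 73.2 and 52.8 CPM (adjusted p = 0.109). Cytosolic ribosomal protein genes were positive in 37 of 41 cases, with a median of 0.19 log2 and 0 called (9 at an unadjusted p below 0.05); RPL10 had 0.51 (adjusted p = 0.106). Of the 30 proteasome genes 20 were negative (median −0.13), with PSMA3 at −0.45 and PSMA4 at −0.39.

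Hypoxia and glycolysis genes had a median of 0.22 log2 (GAPDH 0.40 and NDRG1 0.52), cholesterol and fatty acid synthesis genes 0.21 (the desaturase gene SCD 0.56 and the sterol regulator gene SREBF2 0.54) and YAP-responsive genes 0.21 (GADD45B 0.74 and CRIM1 0.60), with 0 called in each. Mesenchymal genes had 0.32 (the repressor gene SNAI2 0.69 and the matrix gene TNC 0.44), NRF2 targets 0.10 (HMOX1 0.74 and FTL 0.53) and AP-1 factors 0.06 (JUNB 0.50 and JUN 0.33). For club and goblet markers the median was 0.43 over 9 genes (CEACAM6 0.66 and MUC1 0.53), for replication genes 0.05 (POLD1 0.45 and CDT1 0.45), for ATF4 and unfolded-protein genes −0.02 (DNAJB9 −0.78 and XBP1 −0.38) and for the RNA interference machinery 0.06 (AGO4 0.31 and TARBP2 0.29). In 22 of the 33 lists edgeR called 0 of 425 distinct members. Of these, 100 had an unadjusted p below 0.05 by edgeR, a larger share than the 13.3% of all genes tested. The lists were chosen with earlier results of these data known. DESeq2 called 8 of the 425 and limma-voom 0. A miss of the threshold in a design of 2 pairs does not show that such genes were unaffected.

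**Figure D3:**
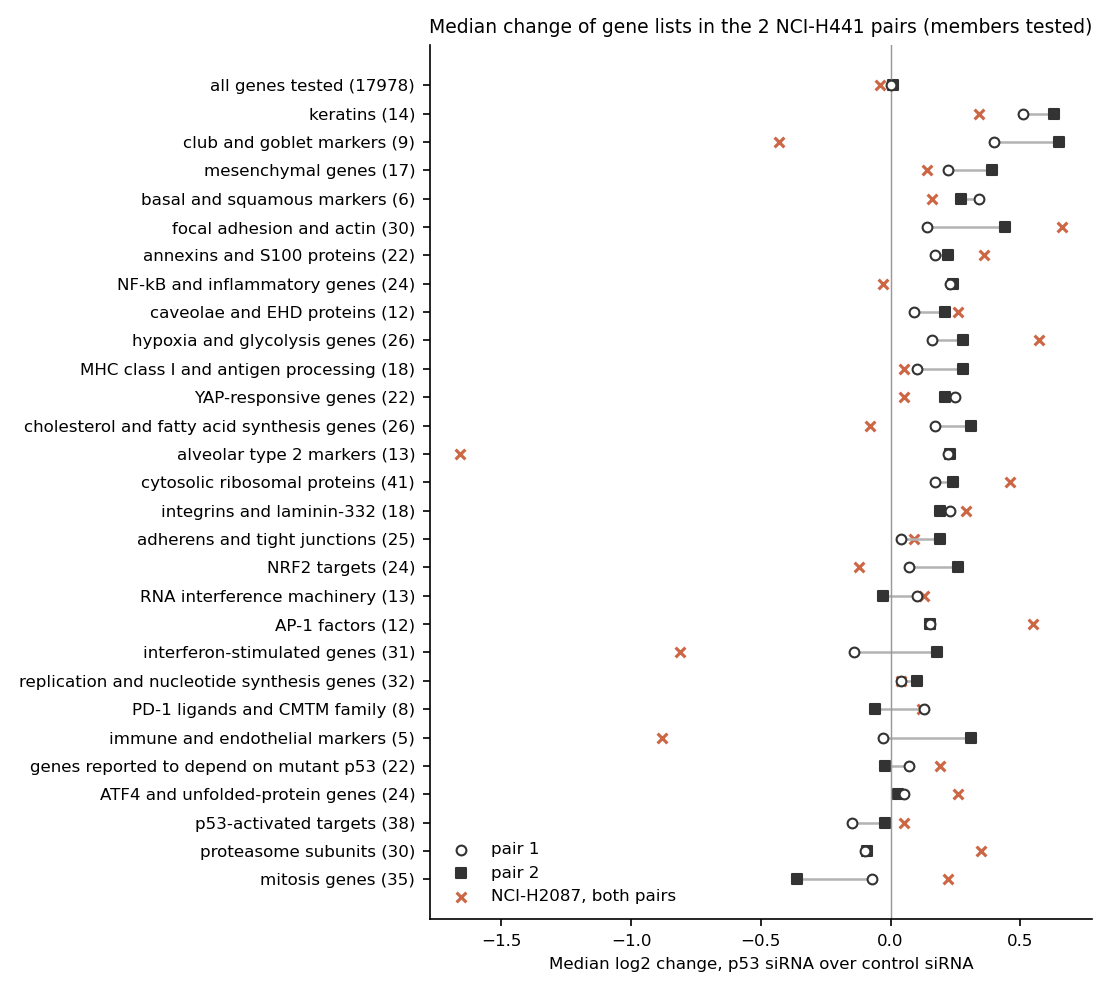
Median log2 change of gene lists (x axis) with p53 siRNA in NCI-H441 pair 1 (open circles) and pair 2 (squares), and in NCI-H2087 (crosses), for 28 lists with at least 5 members tested and for all genes; the number tested is in brackets. Keratins, with the highest median of the paired fit (0.63), lie at 0.51 and 0.63, mitosis genes spread from −0.07 to −0.36, and alveolar type 2 markers are at 0.22 and 0.23 in NCI-H441 but at −1.66 in NCI-H2087.

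Base composition moved with the change, mainly in pair 2. Over 9931 genes, the correlation across genes between the log2 change and the GC share of the 3′ UTR was 0.134 in pair 1 and 0.601 in pair 2. Among genes ordered into 10 bins by GC share, the lowest bin (median 29.4%) had a median change of −0.06 in pair 1 and −0.35 in pair 2, and the highest bin (61.3%) of 0.08 and 0.38. The difference between p53 siRNA replicates 2 and 1 had a correlation of 0.441 with GC share, and that between control replicates −0.035. Called lower genes had a median GC share of 36.1%, called higher genes of 44.7% and all tested genes of 42.4%. The part of base composition in the calls was not tested beyond a fit with each library corrected for transcript GC, chosen after this relation was seen: it called 61 genes with the replicate block, 50 higher and 11 lower, of which 40 were among the 75. The higher share thus went from 65.3% to 82.0%. CDH1 (1.36), ANXA2 (1.21), EFHD2 (1.05), KRT6A, TNS4, EHD2, CMTM6 (−1.19), CYP1B1 (−1.07), CCDC43 (−1.06) and EFCAB14 (−0.99) remained called. Another 18 named genes kept their direction without passing, at adjusted p from 0.0529 (ST3GAL5) to 0.14 (FLNA). The higher ones among them were AC243967.1 (1.16), KRT81 (0.94), AP2A1 (0.92), LOXL2 (0.81), S100A4 (0.64), KRT80 (0.59), LAMB3 (0.52), KRT7 (0.51) and FLNA (0.49). The lower ones were SLC16A14 (−0.91), MORN2 (−0.77), ST3GAL5 (−0.76), C2orf69 (−0.70), CCNYL1 (−0.68), ZNF138 (−0.68), IGF2BP3 (−0.61), SLIRP (−0.57) and TMEM156 (−0.55). Medians of the lists also moved, keratins to 0.42, mitosis genes to −0.11 and actin and focal adhesion genes to 0.20.

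**Figure D4:**
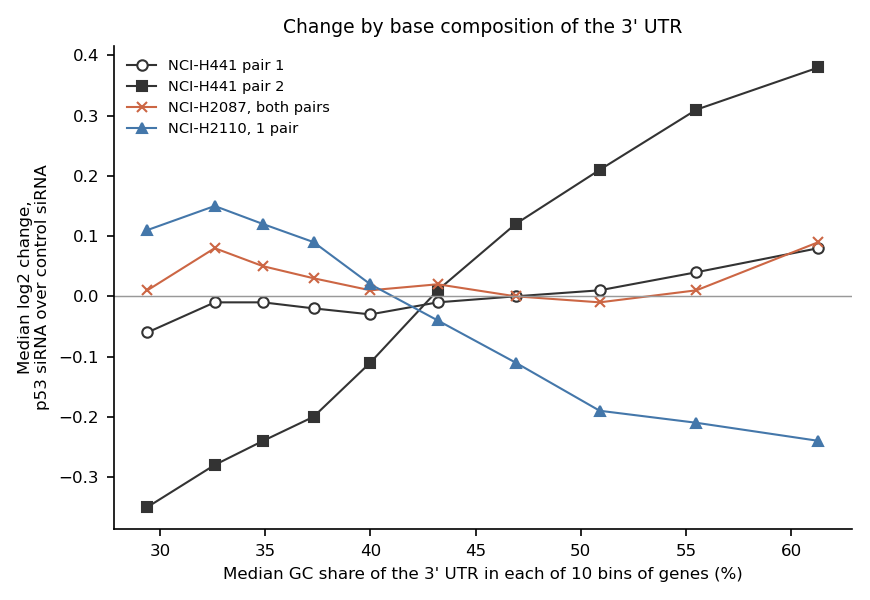
Median log2 change with p53 siRNA (y axis) in 10 bins of genes ordered by the GC share of the 3′ UTR (x axis, median of each bin in percent), for both NCI-H441 pairs, NCI-H2087 and NCI-H2110. Pair 2 of NCI-H441 climbs from −0.35 to 0.38, pair 1 from −0.06 to 0.08, NCI-H2110 runs the other way from 0.11 to −0.24, and NCI-H2087 stays between −0.01 and 0.09.

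The ranking of 7-base sequences without adjustment followed the same gradient. Its lowest was AATTTTA, with a difference of −0.152 log2, and those placed next, ATTTTAA (−0.152) and then TTTAAAA (−0.151), also hold only A and T. The highest was GCCCCGC (0.174), and the 3 highest hold only G and C. For AATTTTA the difference was −0.004 in pair 1 and −0.296 in pair 2.

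Of the 75 genes called in NCI-H441, 61 had the same sign in NCI-H2087 and 51 were called there in the same direction. The 51 are 68.0% of the calls in NCI-H441 and 1.12% of the 4571 in NCI-H2087 (25.4% of genes tested). Of the 49 called higher, 38 were also called higher in NCI-H2087, as were 12.8% of all genes tested. Of the 26 called lower, 13 were also called lower there, against 12.6% of all genes tested. The lines share no control library, but both were tested in the same fit with a shared estimate of spread, so their calls are not independent. CEACAM5 and NPIPA8 were called in opposite directions. In NCI-H2110, which has 1 pair and no test, 54 of the 75 had the same sign, and 69 had at least 10 counts there. The shares of all tested genes with the same sign in NCI-H441 and these lines were not counted.

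The size of the change was tested between NCI-H441 and NCI-H2087 in the same fit, and 1604 genes differed (8.92%), 766 more positive (4.26%) and 838 more negative (4.66%) in NCI-H441. Of the 75 called genes 32 differed, 19 of them with the larger change in NCI-H2087. EFHD2 (1.28 in NCI-H441, 2.73 in NCI-H2087), TNS4 (1.07 and 2.47), RAB3B (1.12 and 2.38), CARNMT1 (1.01 and 2.68), CLDN12 (0.71 and 2.46), TNFAIP3 (0.83 and 2.19), IL15RA (1.24 and 2.25), KRT7 (0.75 and 1.86), LAMB3 (0.70 and 1.56) and ANXA2 (1.12 and 1.77) changed less in NCI-H441. Changes larger in NCI-H441 were found for KRT6A (1.76 and −0.54), KRT81 (1.18 and −0.20), S100A4 (0.75 and −0.11), AC243967.1 (1.23 and −0.61), SLIRP (−0.74 and 0.01), IGF2BP3 (−0.76 and 0.22) and PSMC1P1 (−1.44 and 0.21). KRT6A was near the floor in NCI-H2087, between 0.423 and 1.19 CPM. In NCI-H2110, with 1 pair and no test, KRT6A went from 33.4 to 84.7 CPM (1.34), so its rise was not particular to NCI-H441. For CDH1 (1.36 and 0.90), CMTM6 (−1.37 and −1.83), CYP1B1 (−1.15 and −0.96) and HLA-B (0.85 and 0.92) the difference between lines was not called.

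**Figure D5:**
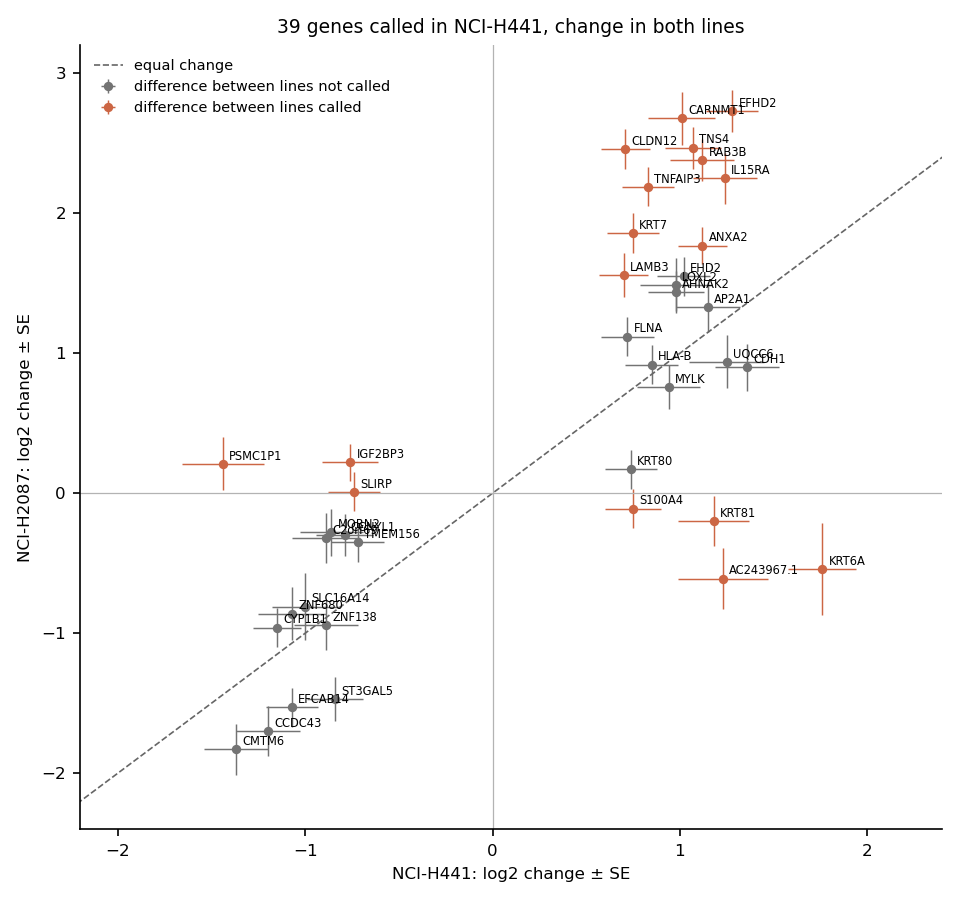
Log2 change ± SE with p53 siRNA in NCI-H441 (x axis) and NCI-H2087 (y axis) for 39 named genes called in NCI-H441 (pseudogenes AC140479.4 and BNIP3P6 left out), with the 17 whose difference between lines was called in colour and a dashed line of equal change. EFHD2, TNS4, RAB3B and CLDN12 lie above the line, at over 2 log2 in NCI-H2087. KRT6A, KRT81 and S100A4 lie near or below 0 in NCI-H2087, where KRT6A has at most 1.19 CPM.

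The genes named by the smallest p-values of this test, 6 in each direction, had changes of 2.0 to 3.89 log2 in size in NCI-H2087 and of at most 0.47 in NCI-H441. The urokinase gene PLAU was at 586 and 956 CPM with control siRNA and 660 and 1240 CPM with p53 siRNA in NCI-H441 (0.27 ± 0.13, against 3.09 in NCI-H2087). ITGA2, an integrin gene for collagen binding, had 0.47 against 3.2 and was higher with p53 siRNA in both NCI-H441 pairs (121 to 188 and 229 to 282 CPM, unadjusted p = 0.00338 and adjusted p = 0.153 by edgeR), the dehydrogenase gene DHRS9 0.28 against 3.73, the AP-1 factor gene FOSL1 0.06 against 2.95, TMCC3 0.01 against 3.28 and PHLDA1, an ERK-induced gene, −0.25 against 2.65. In the other direction, KRT4 had 0.14 against −3.89, the collagenase gene MMP13 −0.13 against −3.23, the antiviral gene OAS2 0.15 against −3.16, the epithelial regulator gene GRHL1 −0.11 against −2.39, CYB5A, which encodes cytochrome b5, −0.01 against −2.23 and the imprinted gene PEG10 −0.05 against −2.0. None of these 12 genes was called in NCI-H441 (edgeR adjusted p from 0.153 to 1). Of 31 interferon-stimulated genes 0 were called in NCI-H441 (median 0.05, with IFIT1 at −0.61) and 21 fell in NCI-H2087, and 17 differed. Of 13 alveolar type 2 markers 0 were called in NCI-H441 (ABCA3 0.48, ETV5 −0.32) and 11 fell in NCI-H2087, and 10 were more positive in NCI-H441.

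Promoters of the called genes were searched for 2 motifs on both strands, the AP-1 motif TGANTCA and the E-box CACCTG, in RefSeq promoter windows (build GRCh38.p14) from 250 bases before to 50 after the start. TGANTCA was in 3 of 33 called higher genes with a promoter entry (9.09%: ANXA2, ARSJ and RAB3B), in 2 of 18 called lower genes (11.1%: TMEM156 and ZNF138), in 5.03% of tested genes and in 7.76% of all promoters. CACCTG was in 30.3% of the called higher genes, 27.8% of the called lower, 19.2% of tested genes and 20.6% of all promoters. Counts this small do not separate the called groups from the rest.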

How the data were processed

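RNA was sequenced from 10 libraries of 3 lung cancer cell lines. The deposited table holds whole-number counts per gene for 57736 Ensembl IDs, without normalization. Bowtie2, RSEM 1.2.12 and the build hg19 are named in the submitters' processing notes, with no roles; whether the authors' counts are rounded RSEM estimates, and which strand they counted, is not given in the sources used here. GENCODE 29 gave names and 3′ UTRs (GRCh38, longest coding transcript).

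Counts were tested in R 4.3.3 with edgeR 4.0.16 (quasi-likelihood, two-sided, Benjamini-Hochberg over all genes tested). filterByExpr kept 17978 genes with 99.96% of counts, and TMM scaled libraries. The model had 5 blocks of line and replicate and 1 siRNA effect per line (2 residual degrees of freedom, 4 without the block). Replicate numbers were treated as pairs, as the comparison asks: differences between replicates correlated between arms (r = 0.595 in NCI-H441, 0.534 in NCI-H2087). Replicates were not copies (chi-square per gene 39.7 and 61.3). The common biological coefficient of variation was 12.1% with the block and 19.8% without. CPM use TMM library sizes, and changes per pair use a prior count of 2. On counts simulated for the NCI-H441 comparison (17656 genes), 98 of 100 changes of 1 log2 and 100 of 100 of 2 log2 were called with the block, with 9 false calls, and 27 and 96 without it. The simulated means came from each block, the spread from the fit with the block, and changes were planted in genes of at least 5 CPM. Pairing was thus built in, so the simulation cannot show which fit suits these data. The GC relation of pair 2 was not simulated.

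Named genes were the called genes of at least 5 CPM with the largest changes whose arms did not overlap (up to 15 each way), the 5 rises and 5 falls with the smallest p, list members by p (at most 4 called, otherwise 2) and 6 genes each way for the difference between lines; others were chosen after their values were seen. The comparison, lists, rules and short sequences were chosen with earlier results of these data known. Short sequences were ranked on changes left after a regression on 3′ UTR GC share and length, added after seeing the data. Alternatives used DESeq2 1.42.0, limma-voom (limma 3.58.1), other scalings and filters, NCI-H441 alone, a GC correction, and single libraries left out. Of the 26 genes called lower, 1 is not reported here, nor is 1 of the 33 gene lists; both entered fits and counts, and the gene was the 1 call without the block.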

Additional observations from a re-analysis of the deposited data

Results flagged for a closer look

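Between NCI-H441 and NCI-H2087 the change with p53 siRNA differed for 1604 genes by edgeR's test of the difference, with the replicate block. Differences below are log2 changes in NCI-H441 minus those in NCI-H2087, and each passed that test.

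Among genes called in NCI-H441, the change was more positive in this line for KRT6A (2.31), AC243967.1 (1.84), KRT81 (1.38), S100A4 (0.86) and the pseudogene AC140479.4 (9.01). It was more negative for CLDN12 (−1.75), CARNMT1 (−1.67), PSMC1P1 (−1.64), EFHD2 (−1.45), TNS4 (−1.41), TNFAIP3 (−1.36), RAB3B (−1.27), KRT7 (−1.11), IL15RA (−1.01), IGF2BP3 (−0.98), LAMB3 (−0.86), SLIRP (−0.75) and ANXA2 (−0.65). KRT6A had at most 1.19 CPM in NCI-H2087. The difference of AC140479.4 rests on control counts near 0 in NCI-H441 and depends on the prior count. Its level after p53 siRNA in NCI-H441 was 0.943 CPM in replicate 1 and 8.71 CPM in replicate 2.

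Among genes not called in NCI-H441, it was more positive for KRT4 (4.03), OAS2 (3.31), MMP13 (3.10), CAPS (3.04), GRHL1 (2.28), CYB5A (2.21), PEG10 (1.95), CEACAM6 (1.58), KDR (1.58), IFIT1 (1.06) and ABCA3 (1.05). It was more negative for DHRS9 (−3.45), TMCC3 (−3.26), PHLDA1 (−2.91), FOSL1 (−2.89), PLAU (−2.82), ITGA2 (−2.73), TNC (−1.14), JUNB (−1.12), HMMR (−1.09), CD68 (−1.07), CENPE (−0.91), JUN (−0.89), NDRG1 (−0.86) and ETV5 (−0.84). The level of CAPS was low in both lines, between 0.925 and 2.66 CPM in NCI-H441 and between 0.214 and 2.6 CPM in NCI-H2087.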

How the results depend on the processing

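Pairing decided the calls. The count in NCI-H441 was 75 with the replicate block and 1 without it, 1 with a GC correction and no block, and 0 in NCI-H441 alone without the block (596 genes at an unadjusted p below 0.05). Other settings gave 463 calls with no filter on low counts, 125 by DESeq2, 20 by limma-voom and 572 for NCI-H441 alone with the block. Leaving out single libraries gave 0 to 543: 22 without control replicate 1 (31.8% higher), 33 without p53 siRNA replicate 1 (27.3% higher), 1 without either library of pair 2, and 499 to 543, including all 75, without an NCI-H2087 library. Library totals alone gave 53 calls, 50.9% of them higher against 65.3%. For the difference between lines, the count of 1604 became 74 without the replicate block, 131 with a GC correction and no block, and 0 to 2005 with single libraries left out (0 to 10 without the block, 10 of them without p53 siRNA replicate 2, and with the block 174 without control replicate 2 and 367 without p53 siRNA replicate 2 of NCI-H441); library totals moved its median over all genes to 0.15 log2 and the more positive share from 47.8% to 66.2%, and DESeq2 gave 35.6%. The causes were not tested.

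Of 41 named called genes, 41 kept their call with no filter and in NCI-H441 alone, 33 with library totals, 27 by DESeq2 (which gave the other 14 no adjusted p), 23 with the GC correction, 14 by limma-voom, 8 and 9 without control or p53 siRNA replicate 1, and 0 without either library of pair 2. Only LAMB3 changed sign under a setting tried, to −0.28 without p53 siRNA replicate 2 and without the block.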

Other observations

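Some called genes of NCI-H441 outside the naming rule, chosen after their values were seen, have related roles. ARPC1A, a subunit of the actin-nucleating Arp2/3 complex, stood at 609 and 649 CPM with control siRNA and at 957 and 984 CPM with p53 siRNA (0.63 log2, edgeR adjusted p = 0.0434). PTK2, the focal adhesion kinase gene, stood at 118 and 96.3 against 183 and 161 CPM (0.69), MICAL2, an actin oxidase gene, at 74.1 and 90.9 against 114 and 146 CPM (0.65), and the scaffold gene AHNAK at 616 and 368 against 929 and 625 CPM (0.68). All 4 had both p53 siRNA libraries above both controls. PDGFB, a platelet-derived growth factor gene, went from 10.1 and 12.9 to 19.0 and 23.1 CPM (0.87), and NTN4, a netrin gene, from 14.1 and 22.7 to 26.9 and 40.6 CPM (0.88).

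MMP9, a gelatinase gene, went from 22.7 to 41.4 CPM in pair 1 and from 75.4 to 196 CPM in pair 2 (1.13), while NCI-H2087 had at most 0.556 CPM. CEACAM5, an adhesion molecule gene, went from 97.1 to 170 and from 43.9 to 92.8 CPM (0.94) in NCI-H441, whereas in NCI-H2087 it went from 270 and 342 CPM to 162 and 126 CPM (−1.09).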
